A study of Homo sapiens with 14 samples.

Results

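The 547 positions described here were reached by cDNAs of the miCLIP experiment but hardly at all by those of FICC-Seq and iCLIP, and they lay outside the tRNA loci listed for the study. They were chosen by their counts, out of 2003 miCLIP peaks. Peaks were called where the cDNA counts of both miCLIP libraries summed to 5 or more and no position of that strand up to 3 nt away was higher. A peak was kept as a miCLIP-only site when the 12 FICC-Seq and iCLIP libraries together held at most 1 count within 3 nt of it, when it was not on the mitochondrial genome, and when it lay over 100 nt from every listed tRNA cluster and over 10 nt from every other listed cluster on its strand. Of the other peaks, 1003 lay in the tRNA regions, 412 lay outside them with 2 or more FICC-Seq or iCLIP counts within 3 nt, 40 lay at other listed clusters and 1 on the mitochondrial genome. The high miCLIP counts and the low counts of the other methods are therefore what the sites were selected on, and no test of that contrast is given. At the edges of the rule, 224 further positions met every other criterion with a sum of 4 where 119 sites had a sum of 5, and 73 further peaks had 2 FICC-Seq or iCLIP counts where 129 sites had 1 and 418 had 0.

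TRMT2A is a methyltransferase that makes 5-methyluridine (m5U), which in cytosolic tRNA is the ribothymidine at position 54 of the T-loop. During the reaction a cysteine of the enzyme binds the uridine covalently, and an enzyme that cannot complete the reaction stays linked to its RNA. Reverse transcription ends at or next to the link, often after the linked base has been copied, and the uridine 1 nt past the position that the pipeline assigns to the cDNA is then taken as the trapped one. The T-loop is closed by a stem of 5 pairs, the T-stem, and its bases 54 to 58 mostly read TTCGA or TTCAA in the gene.

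The miCLIP libraries (2 replicates) came from HEK293 cells, a human embryonic kidney line, that had been transfected 24 h earlier with a FLAG-tagged TRMT2A cDNA construct in which a catalytic glutamate was replaced by alanine, and the complexes were taken with anti-FLAG antibody. FICC-Seq used endogenous TRMT2A, an anti-TRMT2A antibody and 100 µM 5-fluorouracil for 24 h, in HEK293 and in HAP1, a near-haploid human line. iCLIP used the same antibody and UV light in the same 2 cell lines, with 3 replicates for each method and cell line. The condition label of all samples reads Untreated, so the 5-fluorouracil treatment of the FICC-Seq cells is known from the protocol. FICC-Seq replicates 1 and 3 of HEK293 carry the same labelled 5′ barcode, but their counts differed by more than counting error over 397 peaks (chi-square test, p = 7.98e-27) and they were kept as 2 libraries. Only the miCLIP cells carried the construct, and they also differed in the antibody and the way of crosslinking, so that these cannot be told apart between miCLIP and the rest. The miCLIP libraries held 39024 and 104605 counts, the FICC-Seq libraries from 15982 to 38957 and the iCLIP libraries from 7002 to 17432, so a count of 0 allows up to 0.00769% and 0.00287% of the miCLIP libraries and up to 0.0428% of the smallest iCLIP library. Across all 2003 peaks the split between the miCLIP replicates differed by more than counting error (chi-square test, p = 2.16e-233), so they were not repeat deposits of 1 library. The study calls the replicates biological, but nothing states that they came from separate cultures. Permutation p-values measure the spread between these libraries. The chi-square and exact binomial tests between replicates cover counting error only. As the miCLIP split varied by more than this over all peaks, the binomial calls describe these 2 libraries and may be too many. FICC-Seq replicate 2 of both cell lines stood apart from the other FICC-Seq libraries around the sites, and the comparisons there are given with and without it. Such limits, and the intervals given below, cover counting error only.

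The sites fell into 4 groups. The first was 103 sites (18.8%) on tRNA genes that the list did not hold and that were found here in the genome sequence. The second was 59 sites (10.8%) in the gene of TRMT2A itself. The third was 146 sites (26.7%) elsewhere at which the 18 bases from the peak on had at most 3 mismatches to the 3′ part of a mature tRNA with its CCA end. The remaining 239 sites (43.7%) met none of these. The study's list includes only sites that reached a minimum count in several of its experiments. Being unlisted is thus itself partly bound to low FICC-Seq and iCLIP counts. Outside tRNA means here outside the listed tRNA regions, and 133 of the 412 other peaks outside tRNA also lay on unlisted tRNA genes. The groups are shown by 30 bases each, from 10 before the peak to 19 after it, on hg19 (GRCh37). The capital marks the base after the peak, where a trapped uridine is expected. The first 4 are tRNA genes, named by the anticodon, with 3 peaks before T54 and 1 before T33 of the anticodon loop.

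chr6:28949450-28949479, minus strand, anticodon GAA (Phe), peak at 53: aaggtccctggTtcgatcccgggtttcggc
chr6:28456771-28456800, minus strand, anticodon CGT (Thr), peak at 53: gagatcctgggTtcgactcccagtggggcc
chr6:26319331-26319360, minus strand, anticodon CCA (Trp), peak at 53: aaggttgcgtgTtcaaatcacgtcggggtc
chr6:28693817-28693846, plus strand, anticodon AGT (Thr), peak at 32: aagcgcctgtcTagtaaacaggagatcctg

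The next 3 are the highest sites of the TRMT2A coding sequence, which show that the flanks there do not read as a T-loop while T follows each peak.

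TRMT2A exon 4, chr22:20102868-20102897, minus strand: ggctcggcaagTacaagggcgggacgtgtg
TRMT2A exon 12, chr22:20100099-20100128, minus strand: agataacacccTacaagaaactgggacctt
TRMT2A exon 2, chr22:20103796-20103825, minus strand: cctttgtgacaTtccgcagcgctgcagaga

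The next 3 show how the tRNA-like sites resemble a T-loop and the bases after it. The first is the highest of them, and the others were chosen after their values were seen.

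chr1:246960596-246960625, plus strand, no annotated gene: cacccctcagaTtcaaatccaggtgctccc
NBEAL2 coding sequence, peak at chr3:47044528, plus strand: ccaaccatcacTtcgaccctcacctggaag
ITGA9-AS1 intron, peak at chr3:37753402, minus strand: ctggacatcaaAccccgtccgtgcccacca

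The last 5 are the highest of the remaining sites in their classes, with a pair of Y RNA genes that share nearly all printed bases after their peaks.

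chrUn_gl000220:118249-118278, plus strand: cggccggagagGcggccgccccctcgcccg
chr19:45981927-45981956, minus strand, in the annotated ERCC1 gene: aaggttgtcctGcccggatgatcctcagtg
chr9:135880252-135880281, minus strand, no annotated gene: gctgagctgccTtcaagtccacccaggcct
Y_RNA gene, chr2:206890357-206890386, plus strand: aaccagttagtTacagatttctttgctcct
Y_RNA gene, chr12:93854536-93854565, minus strand: tcataaccagtTacagatttctttgttcct

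Together the 547 sites held 7035 counts, 1949 in replicate 1 and 5086 in replicate 2, or 4.99% and 4.86% of the libraries. The median site had 8 counts and the highest 114, and 200 sites had 10 or more. Counts came from both libraries at 464 sites (84.8%), while 75 sites had none in replicate 1 and 8 had none in replicate 2. The 412 peaks outside tRNA that also had FICC-Seq or iCLIP counts were higher, with a median of 10, and the 1003 peaks in tRNA regions had a median of 20. These medians are given as a description, as the sum of counts is part of the rule.

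As the rule pools the 2 miCLIP libraries, it was also applied to each library alone, and the sites were then read in the library that had not chosen them. Of 355 sites chosen with replicate 2, 276 had a count at the same position in the shallower replicate 1 (77.7%, 95% exact binomial interval 73.1 to 82). Of 143 sites chosen with replicate 1, 135 had one in replicate 2 (94.4%, 89.3 to 97.6). For peaks in tRNA regions chosen and read in the same ways, the shares were 86.9% and 99.8%. Those tRNA peaks were higher. At 5 to 9 counts in replicate 2, 68.8% of the sites (62.4 to 74.7) and 65.4% of the tRNA peaks (59.2 to 71.2) had a count at the same position of replicate 1, and 78.8% and 88.2% had one within 3 nt. At 5 to 9 counts in replicate 1, 91.8% of the sites (84.4 to 96.4) and 99.5% of the tRNA peaks (97.1 to 100) had a count at the same position of replicate 2. At the same position, the intervals of sites and tRNA peaks thus overlapped when read in replicate 1 and did not when read in replicate 2.

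How evenly a peak was split between the replicates was tested for each of the 2003 peaks, against the 27.2% of all miCLIP counts that replicate 1 held. At an adjusted p under 0.05 (exact binomial test, Benjamini-Hochberg over all peaks), 1.35% of all peaks were relatively higher in replicate 1 and 3.25% in replicate 2. Of the miCLIP-only sites, 15 (2.74%) were higher in replicate 1 and 7 (1.28%) in replicate 2. Over all sites, 27.7% of the counts came from replicate 1, against 23% for peaks in tRNA regions. When that tRNA share was taken as the expected one, 26 sites were higher in replicate 1 and 1 in replicate 2, and with a minimum of 10 counts and the first expected share, 4 sites were higher in replicate 1 and 7 in replicate 2. The balance of the directions thus turned with the setting. It was also bound to height, as replicate 1 is the smaller library. The sites called higher in replicate 1 had from 5 to 23 counts, and 7 of the 15 had 5 counts in replicate 1 and 0 in replicate 2. Those called higher in replicate 2 had 31 or more, while none of the 75 sites with 0 in replicate 1, which had up to 13 counts, was called. Among the highest sites, those called higher in replicate 2 included chrUn_gl000220:118259 with 16 and 98 counts (adjusted p = 0.03, exact binomial test) and the site before T54 of the phenylalanine tRNA gene with 13 and 88 (adjusted p = 0.0238, exact binomial test).

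**Figure D1:**
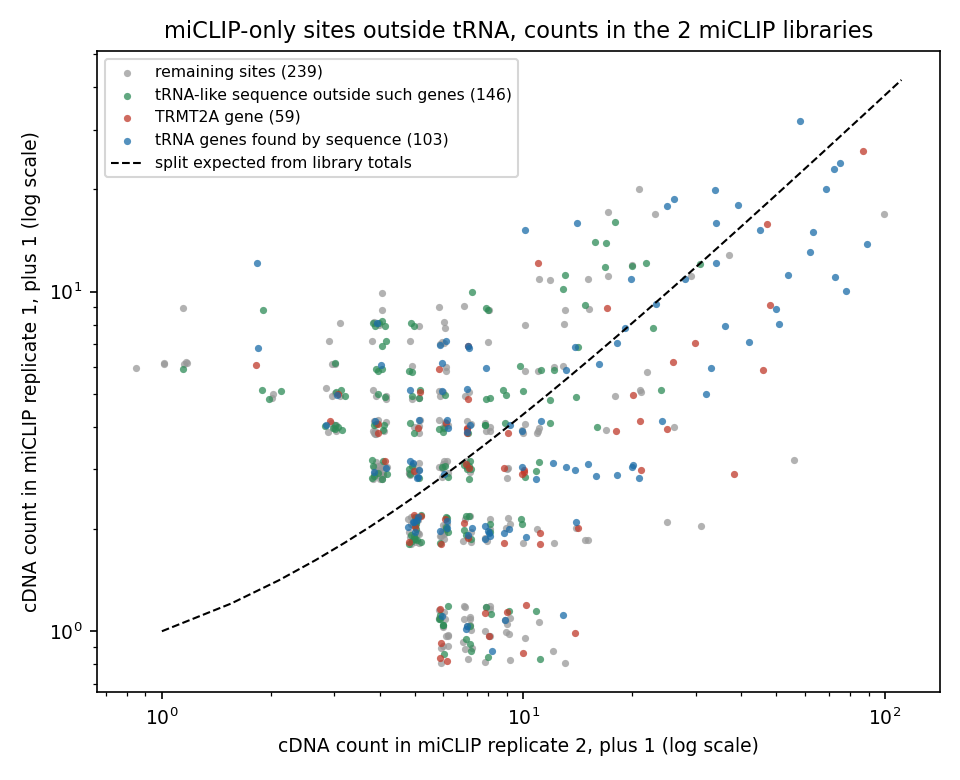
Each point is 1 of the 547 sites, with its cDNA count in miCLIP replicate 2 on the x axis and in replicate 1 on the y axis (both plus 1, log scales, points moved slightly apart), coloured by group. The dashed line is the split expected from the library totals, and the sites lie on both sides of it, with the highest, on an unplaced scaffold, at 16 and 98 counts.

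On the 103 sites of unlisted tRNA genes, counts were concentrated before T54. These sites lay on 59 genes, all with T54, and were the highest of the 4 groups, with a median of 12 counts and a sum of 567 in replicate 1 and 1814 in replicate 2. By anticodon, cysteine (11 genes), threonine (10) and arginine (7) had the most genes with a site, and threonine genes had the most counts, 730 over 25 sites. Positions 53 and 54 held 36 sites (35%) and 1464 of the 2381 counts of the group. The search allowed T or A at 54. As all 59 genes had T54, T necessarily followed each of the 32 sites at position 53. Position 58, where 1-methyladenosine of mature tRNA stops reverse transcription, held 15 sites and 266 counts. A further 23 sites (22.3%) could be given no tRNA position.

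The highest tRNA site was before T54 of a phenylalanine gene (chr6:28949449-28949521, minus strand, anticodon GAA, no other annotated gene there), with 13 and 88 counts in replicates 1 and 2. The next had 23 and 74 counts on a threonine gene (chr6:28456770-28456843, minus strand, anticodon CGT) inside an intron of the unnamed gene ENSG00000287804. On another threonine gene (chr6:26533145-26533218, minus strand, anticodon AGT) the site at 53 had 22 and 71 counts. Both libraries thus had counts at each of these, and at all but 6 of the 103 sites.

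Positions 32 to 38, the anticodon loop, held 22 sites (21.4%). The highest was at position 32 of a threonine gene (chr6:28693795-28693868, plus strand, anticodon AGT), with 14 and 62 counts, right before T33, the uridine that nearly all tRNAs share. The 25 bases after this peak occur 9 times in the genome. Position 32 held 8 sites with 216 counts, 4 of them on threonine and 3 on arginine genes, and position 37 held 9 sites with 95 counts. T followed all 8 sites at position 32, which was fixed by the numbering, as the loop was placed by requiring T33. T followed 2 of the 9 sites at position 37. What ended the cDNAs at these positions, a trapped uridine or another stop of reverse transcription, was not tested. Among the 826 peaks of the listed tRNA regions that could be placed in a gene in the same way, 18.3% were at positions 32 to 38, 27.7% at 53 or 54 and 16.7% at 58. Among the 133 other peaks on unlisted genes, the shares were 16.5%, 37.6% and 25.6%. The intervals of the anticodon loop shares overlapped.

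**Figure D2:**
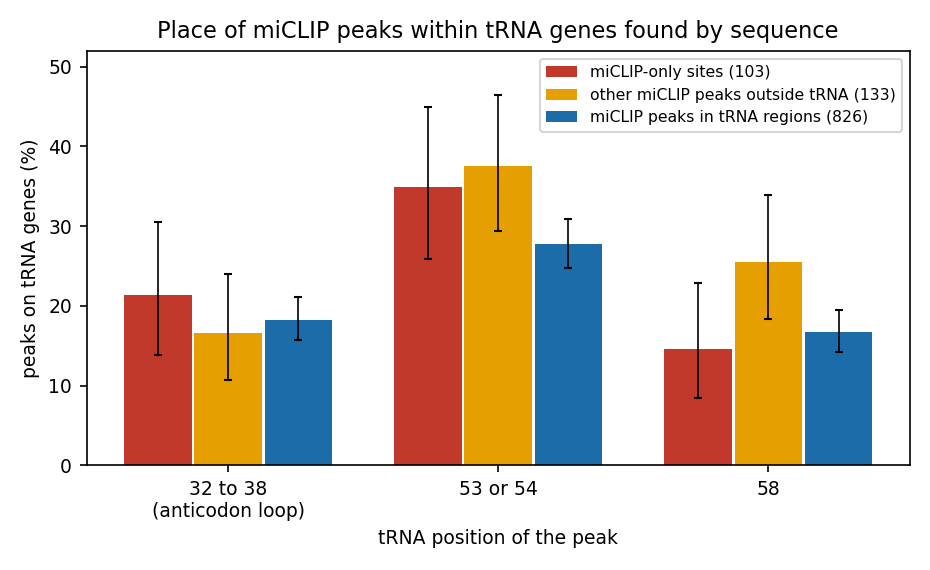
Bars give the share of miCLIP peaks on tRNA genes found by sequence (y axis, %) at 3 sets of tRNA positions (x axis), for the miCLIP-only sites (red), the other peaks outside the listed tRNA regions (orange) and the peaks in those regions (blue), with 95% exact binomial intervals. In all 3 sets positions 53 and 54 have the largest share. Positions 32 to 38 come next for the miCLIP-only sites (21.4%) and for the peaks in the listed regions (18.3%). For the other peaks outside those regions position 58 comes next (25.6%).

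A further 20 sites lay 1 to 10 nt before the first base of a tRNA gene found by sequence, 2 of them directly before it, and none lay 1 to 10 nt past the place of CCA. Among the other peaks outside tRNA these numbers were 20, 3 and 0. An example is the pair of sites at chr5:180615493 and chr5:180615489 on the minus strand, in an exon of the long noncoding RNA LINC01962. They had 4 and 2 counts in replicate 1 and 20 and 6 in replicate 2. The transcript LINC01962 also spans a site inside that tRNA gene, at chr5:180615424, which had 11 counts in replicate 1 and 1 in replicate 2 (adjusted p = 0.000746, exact binomial test) while the pair before it was not called in either direction.

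The highest site classed as intronic was chr19:45981946 on the minus strand, with 2 and 55 counts (adjusted p = 0.000814, exact binomial test). It was annotated within ERCC1, a DNA repair nuclease subunit, and the sequence search called no tRNA gene at it. RefSeq, on GRCh38, has the selenocysteine tRNA gene TRU-TCA1-1 of 87 nt near ERCC1 but not inside it, with 1 gene between them. No sequence of that tRNA was compared here. In the 87 bases that follow the peak, the first 7 pair with the last 7 in 4 of 7 places, and with the 7 before the last base in 7 of 7, as in a tRNA whose last base is unpaired. The other sites there were chr19:45981912, with 4 and 20 counts, and chr19:45981875, with 16 and 22, which is at tRNA position 58 if the G of the GTTCAA found there is taken as 53. Whether the 3 sites belong to that tRNA was not tested.

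The TRMT2A gene on chromosome 22 held 59 sites, 58 in its coding sequence, 1 in an intron and none in untranslated exons. The transfected construct carries this gene. On the coding sequence of 1875 nt, replicate 1 had 564 counts and replicate 2 had 1795, or 14453 and 17160 CPM (counts scaled to the library total). The FICC-Seq libraries had 0, 2 and 0 counts there in HEK293 and 0, 2 and 0 in HAP1. The iCLIP libraries had 1, 0 and 0 in HEK293 and 5, 3 and 0 in HAP1. All 12 libraries thus lay below both miCLIP libraries, which together had a count at 37.2% of the coding positions. As the rule selected on this contrast, it was not tested.

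Within the miCLIP libraries the counts stopped at the ends of the coding sequence. The untranslated parts of the exons (1011 nt) had 0 and 2 counts in replicates 1 and 2. The introns (2466 nt) had 17 and 77. Per kb of length, replicate 2 had 957 counts on the coding sequence, 1.98 on the untranslated parts and 31.2 on the introns. The intronic site itself, chr22:20101338, had 2 and 37 counts and lay 7 nt before exon 8. Reads of an mRNA from the endogenous gene and from the construct could not be told apart on the coding sequence.

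The sites were spread over 9 of the 12 exons. Exon 2 (575 coding nt) had 14 sites, exon 4 had 10, exon 6 had 8, exon 12 had 7 and exon 11 had 6. The density was highest in exons 11 and 4, with 270 and 268 counts per 100 nt over both libraries, and lowest among the exons over 24 nt in exons 3 and 9, with 11 and 19.7. Exons 1, 3 and 9 had no site. Reads were mapped to the genome, so cDNAs that cross the join of 2 exons may be missing. Whether this changed the counts of single exons was not tested. The highest site, in exon 4 at coding position 792, had 25 and 86 counts in replicates 1 and 2. The site in exon 12 at coding position 1846 had 15 and 46, that in exon 2 at 345 had 8 and 47, and that at the first base of exon 11 at 1550 had 5 and 45. The other coding sites had from 5 to 35 counts, and 10 of the 58 had none in replicate 1.

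T followed the peak at 42 of the 58 coding sites (72.4%), A at 13, C at 2 and G at 1, while T makes up 16.7% of the coding sequence. Over all coding positions, those followed by T had a mean of 3.56 miCLIP counts, those followed by A 1.6, by C 0.63 and by G 0.449. T thus stood after the peak more often than in the sequence as a whole, but none of the sites had GTTCGA or GTTCAA at the place of a T-loop, 1 had a T-arm-like hairpin and 1 was tRNA-like.

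Of the 444 sites outside the tRNA genes, 147 (33.1%) were tRNA-like, 1 of them in TRMT2A. The peak aligned to position 53 of the tRNA at 72 of them (49%), to 58 at 45 (30.6%) and to 54 at 23 (15.6%). Only 4 matched without a mismatch and 10 with 1, while 62 had 2 and 71 had 3. No gene was annotated at 101 of them, 37 lay in introns and 6 in coding sequence. Of the sites aligned to 53, 88.9% had T after the peak, against 24.4% of those aligned to 58. The aligned position was itself chosen by the best match of the bases from the peak on. This contrast was therefore partly set by the alignment and is given as a description only. The 279 other peaks outside tRNA and outside tRNA genes were tRNA-like in 63.4% of cases, and there 49.7% aligned to 58 and 32.2% to 53. As the 2 sets were divided by the FICC-Seq and iCLIP counts alone, the sequence was not used by the rule, but peaks of a family share sequence and no test was made.

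The tRNA-like sites were mostly single positions. Another site lay within 50 nt of 2 of the 146 (1.37%), against 69.9% of the sites on tRNA genes and 98.3% of those in TRMT2A. The highest, chr1:246960606 on the plus strand, had 11 and 30 counts in replicates 1 and 2, and its bases from the peak on had 2 mismatches to a tRNA. The site in the coding sequence of NBEAL2, a gene needed for platelet granules, had 7 and 22 counts, and the peak aligned to 53. The site in the intron of ITGA9-AS1 had 13 and 16 counts and aligned to 58. Over the group, 35.2% of the counts came from replicate 1, the highest share of the 4 groups, while the share of its sites called higher in replicate 1, 1.37% or 2 sites, was near the 1.35% of all peaks.

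The remaining 239 sites held 2367 counts, 134 of the sites where no gene was annotated, 44 in introns and 20 in coding sequence. At 110 of them (46%) the bases after the peak had 4 or 5 mismatches to a tRNA 3′ part, just past the limit used. T followed 55.6% of them, TTC 32.6%. TTC was counted after the base profile had been seen. The highest site of all, chrUn_gl000220:118259, had 16 and 98 counts. It lies on an unplaced scaffold that is known to carry a ribosomal DNA repeat, for which no annotation was used here, and 6 sites were on that scaffold. Near it, 4 to 50 nt away, iCLIP had 37 counts and FICC-Seq 2. The neighbouring site at 118199 had 5 and 21 counts, with 29 iCLIP and 5 FICC-Seq counts near it. The site chr9:135880271 on the minus strand, with no annotated gene, had 12 and 36 counts and no other counts within 50 nt from FICC-Seq or iCLIP.

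Among small noncoding RNAs, sites were found on Y RNA genes, on RN7SK and on the microRNA gene MIR3648. Y RNAs are short RNAs bound by the Ro60 protein, and most of their genomic copies are pseudogenes. The 14 Y RNA sites lay on 9 genes and held 35 and 75 counts in replicates 1 and 2. They were low, with 5 to 16 counts each, but 13 of the 14 had counts in both libraries. They fell within 47 to 66 nt from the start of genes of 101 to 105 nt, and T followed 12 of the 14. The copy on chromosome 2 at 206890367 had 7 and 9 counts, and the copy on chromosome 12 at 93854555 had 5 and 5. The 25 bases after the peak occurred 3 times in the genome for the former and 53 times for the latter. RN7SK, the 7SK RNA that holds the elongation factor P-TEFb, had 1 site of 3 and 7 counts. No site lay in an exon of 7SL, U snRNA, vault RNA, RNase P or MRP RNA, snoRNA, scaRNA, annotated rRNA, ribosomal protein, elongation factor, MALAT1 or NEAT1 genes, and 1 lay in a histone gene, H3-3B, with 6 counts. Sites on scaffolds without annotation, the highest site among them, could not be counted here.

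Outside TRMT2A, 25 sites lay in the coding sequence of 25 genes or overlapping genes, with 73 and 140 counts in replicates 1 and 2. No gene other than TRMT2A had more than 1 such site. T followed 18 of the 25 (72%), 3 had GTTCGA or GTTCAA at the place of a T-loop, and 5 were tRNA-like. Untranslated exons held 14 sites of 5 to 11 counts, of which 7 had counts in both libraries and T followed 11. The highest of them were in BSX, a homeobox gene, with 6 and 5 counts, and in OAZ1, an inhibitor of polyamine synthesis, with 3 and 7. The other exons, mostly of long noncoding RNAs, held 7 sites, among them 1 in PRMT5-DT with 3 and 10 counts.

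Over all sites, T followed the peak at 324 of 547 (59.2%, 95% exact binomial interval 55 to 63.4). The share was 52.9% (48 to 57.8) for the other peaks outside tRNA and 45.2% (42.1 to 48.3) for peaks in tRNA regions. At the other offsets within 20 nt, the median share of T at the sites was 21.7%, and only the base 2 nt after the peak came near, with 56.7%. In TRMT2A the base 2 nt after the peak was T in 25.4% of cases, against 71.2% for the base after the peak. In the other groups T was at least as common 2 nt after the peak. The shares were 60.2% against 54.4% on tRNA genes, 63.7% at both bases of tRNA-like sites and 58.6% against 55.6% at the remaining sites. They were 61.7% against 52.9% for the other peaks outside tRNA and 51.6% against 45.2% for peaks in tRNA regions. A appeared after 20.5% of the sites, C after 11.2% and G after 9.14%. Without the TRMT2A sites the share with T was 57.8%, and without the tRNA genes too it was 58.7%. Each group thus had T after most of its peaks, while the T-loop itself was less common, as GTTCGA or GTTCAA stood at 50 sites (9.14%) and a T-arm-like hairpin at 68 (12.4%). The shares were 14.8% and 18.9% for the other peaks outside tRNA, and 22.6% and 32% for peaks in tRNA regions. Of the 50 motif sites, 31 were on tRNA genes, as were 46 of the 61 motif peaks among the other peaks outside tRNA. For the hairpin these numbers were 34 of 68 and 55 of 78. tRNA genes found by sequence held 18.8% of the sites and 32.3% of the other peaks outside tRNA. The lower shares of the sites thus partly reflect this make-up, and no test was made.

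The counts of the other methods around the sites were read 4 to 50 nt away. The rule acted on this window too, since it kept sites over 100 nt from listed tRNA clusters, so the window holds none of those tRNAs, and the shares are therefore a description with no test. The FICC-Seq libraries had 0.0506%, 0.413% and 0.0563% of their counts there in HEK293 (replicates 1 to 3) and 0.037%, 0.503% and 0.0513% in HAP1. The iCLIP libraries had 0.522%, 0.839% and 0.7% in HEK293 and 0.59%, 0.733% and 0.523% in HAP1. In both cell lines FICC-Seq replicate 2 stood apart from the others, and every FICC-Seq library lay below every iCLIP library. The means were 0.173% ± 0.208 (SD, n = 3) and 0.197% ± 0.265 for FICC-Seq in HEK293 and HAP1, and 0.687% ± 0.159 and 0.615% ± 0.107 for iCLIP. Between the cell lines the means over both methods were 0.43% in HEK293 and 0.406% in HAP1.

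The libraries also differed in how much of them lay outside the tRNA regions, from 14.4% to 24.5% in FICC-Seq and from 38.4% to 54.9% in iCLIP. As a share of the counts outside tRNA, the methods overlapped. By that measure FICC-Seq replicate 2 had 2.87% in HEK293 and 2.27% in HAP1, above all other libraries, while the other FICC-Seq libraries had from 0.151% to 0.324% and the iCLIP libraries from 0.951% to 2.17%. The difference of FICC-Seq from iCLIP was -0.466 points of the library and -0.47 points of the counts outside tRNA, and without both FICC-Seq libraries numbered 2 it was -0.602 and -1.24 points.

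The counts near the sites were unevenly spread over the groups. At least 1 FICC-Seq or iCLIP count lay 4 to 50 nt from 157 of the 547 sites (28.7%). The number was 92 of 103 for tRNA genes, 14 of 59 for TRMT2A, 11 of 146 for tRNA-like sites and 40 of 239 for the remaining sites. With the tRNA genes found by sequence left out, the difference of FICC-Seq from iCLIP was -0.179 points of the library, and -0.228 points also without the FICC-Seq libraries numbered 2. For tRNA-like sites the means were 0.0177% and 0.0171% in FICC-Seq and 0.0125% and 0.0142% in iCLIP, from at most 10 counts in a library, and were not compared.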

How the data were processed

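The authors deposited, for each of 14 libraries, signed whole-number cDNA counts per position on hg19. They had removed duplicates by random barcode and adaptors with the iCount web server and mapped the reads with bowtie, keeping uniquely mapping reads, and the values are not scaled for depth. The sites and gene lists described here were chosen with earlier results of these data known. tRNA clusters and other clusters came from the positions in the study's list of clusters. Its values were not used.

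Genes were named from GENCODE v44 mapped to GRCh37 and read on the same strand. tRNA genes were found in the sequence by T54 or A54, at least 4 of 5 pairs in the T-stem, at least 6 of 7 in the acceptor stem and T at position 8. Of 493 listed tRNA clusters, 474 held one, which gave 107 different 3′ parts (positions 49 to 73 and CCA). The anticodon was read from the loop of 7 bases with T33. A T-arm-like hairpin had at least 4 of 5 pairs around a loop of 7 starting after the peak. Copies of the 25 bases after the peak were exact, on both strands. RefSeq (GRCh38) gave the name of 1 tRNA gene.

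Sites are regions of pooled libraries and not replicates. Libraries were compared by exact permutation in a window that the rule had acted on, so those p-values are given only with the processing alternatives, and peaks between miCLIP replicates by exact binomial tests. Named were the 10 highest sites, the 2 highest of each class, every TRMT2A exon site and the 3 sites with the most others within 50 nt, which were in TRMT2A. Sites on scaffolds without annotation formed a class of their own. The steps were tested on simulated data: of 500 built tRNA genes, 100% were found at their place, and 0.2% of shuffled sequences held one. Of simulated peaks with the odds of the split changed 8 times, 70% were called, and of those changed 4 times, 44%. The odds were changed towards replicate 1 only, with counting error as the only noise. The alternatives covered the limits of the rule, depth, the expected split, the window, the denominator, a replicate block and leaving out libraries. Files were read with pandas 2.3.3 and numpy 2.4.6 in Python 3.11.15 and the genome with pysam 0.24.0. Tests came from scipy 1.17.1 and plots from matplotlib 3.10.9.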

Additional observations from a re-analysis of the deposited data

How the results depend on the processing

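The number of sites, 547, followed depth and the minimum. It was 200 with a minimum of 10 counts and 284 with replicate 2 thinned to the total of replicate 1 (mean of 20 draws), and with 1 library left out it was 355 without replicate 1 and 143 without replicate 2. The other 7 alternatives gave from 385 to 488 sites. The share with T after the peak stayed between 57.8% and 64.6% over 12 alternatives. Shares that rest on sequence limits moved more. The tRNA-like share was 8.96% with at most 1 mismatch and 48.3% without replicate 2. The hairpin share ranged from 6.4% to 18.9%, the motif share from 4.28% to 14.5% and the share with no annotated gene from 32.2% to 61%. Leaving out the TRMT2A sites, alone or with the tRNA genes, and leaving out both FICC-Seq libraries numbered 2, were chosen after seeing the data, as were its combinations with the other denominator and with the tRNA genes left out. Uneven splits were called at 92 of all peaks, 87 with the share expected from tRNA peaks and 98 with a minimum of 10, and at 22, 27 and 11 of the sites.

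The difference between FICC-Seq and iCLIP near the sites kept its direction under 20 alternatives, from -1.24 to -0.179 points. Exact permutation gave it an adjusted p of 0.01 over 2 tests, but the rule acted on that window, so this p supports nothing about the methods. With the counts outside tRNA as the denominator it was -0.47 points (adjusted p = 0.635, exact permutation), and -1.24 points (adjusted p = 0.02, exact permutation) without both FICC-Seq libraries numbered 2. With 1 library left out at a time it ran from -0.542 to -0.426, with adjusted p from 0.01 to 0.03. The difference between the cell lines, which was never past the threshold, ran from -0.0359 to 0.1 with 1 library left out. With the replicate number as a block, the difference between the methods was the same -0.466 points and that between the cell lines 0.024 points, but the paired test allows no adjusted p under 0.0625, which is what the former reached. The numbers did not pair the libraries: deviations at 2199 FICC-Seq and iCLIP peaks correlated by -0.0815 to 0.148 between libraries of the same number and cell line, and 3 of 6 correlated best with their own number. Depth limits the reading of absence. A count of 0 in an iCLIP library allows up to 0.0172% to 0.0428% of it.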
